A study of Mus musculus with 3 samples.

Results

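The genes described are 38 markers of the dividing cell, looked up by symbol among the 32285 genes of a droplet single-cell RNA data set of mouse lung; each of the 38 symbols was found as a single row. They fall into 22 genes of G2 and mitosis (G2/M members) and 16 genes of DNA replication (S members). Every cell holding transcripts of at least 4 of the 22 G2/M members was called G2/M-positive, and every cell holding at least 4 of the 16 S members was called S-positive; a transcript is counted as a unique molecular identifier (UMI). The series holds 3 libraries, labelled PD00, Model and Control. The PD00 library is named after a peptidomimetic, the Model library belongs to a study of ovalbumin-induced immune cells, and the Control library is the comparison sample; all came from mice aged 3 months. The labels describe the tissue of all 3 as healthy lung, and they state neither the number of animals behind a library nor whether the PD00 mice also received ovalbumin. With 1 library per group there is no replicate, so no difference below carries a test: intervals are 95% and cover counting error only, and a difference between libraries cannot be told apart from a difference between animals or preparations.

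In a dividing cell, cyclin E with its kinase partner, the loading factors Cdc6 and Cdt1 and the MCM helicase open the DNA for copying, while enzymes such as ribonucleotide reductase (Rrm1, Rrm2), thymidylate synthase (Tyms) and thymidine kinase (Tk1) supply nucleotides. Cyclin A and the cyclin B genes then activate Cdk1, the kinase that drives mitosis; kinesins, centromere proteins and the Aurora, Polo and Bub kinases separate the chromosomes, and Cdc20 and Ube2c direct the destruction of the cyclins at mitotic exit. In lung, alveolar macrophages renew themselves by local division, lymphocytes divide after meeting antigen, and neutrophils arrive as cells that no longer divide.

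Promoters of the members are shown because the G2/M and the S members are followed as separate lists below. The sequences come from RefSeq on build GRCm38.p6, cover 250 bases before to 50 bases after the annotated start, and were found for 32 of the 38 members. In all, 3 short motifs were searched on both strands: the CCAAT box (CCAAT), the cell cycle homology region (TTTGAA) and an E2F-like site (TTTNNCGC). Capitals mark their matches. Matches run into each other in Ube2c and Mcm5, and in 1 of the members a CCAAT match overlapped an E2F-like one. The following 3 belong to G2/M members with a CCAAT box and a cell cycle homology region; the next pair belongs to S members with an E2F-like match, and Ccne1 holds none of the 3 motifs.
Ube2c (chr2:164769679-164769978, plus strand): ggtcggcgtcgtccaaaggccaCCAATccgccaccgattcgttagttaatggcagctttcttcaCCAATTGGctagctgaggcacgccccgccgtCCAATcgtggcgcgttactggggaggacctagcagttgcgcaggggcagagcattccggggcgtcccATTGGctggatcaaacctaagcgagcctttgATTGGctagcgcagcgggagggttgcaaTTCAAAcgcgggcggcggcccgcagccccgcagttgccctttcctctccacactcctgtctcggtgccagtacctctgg
Cdc20 (chr4:118437294-118437593, minus strand): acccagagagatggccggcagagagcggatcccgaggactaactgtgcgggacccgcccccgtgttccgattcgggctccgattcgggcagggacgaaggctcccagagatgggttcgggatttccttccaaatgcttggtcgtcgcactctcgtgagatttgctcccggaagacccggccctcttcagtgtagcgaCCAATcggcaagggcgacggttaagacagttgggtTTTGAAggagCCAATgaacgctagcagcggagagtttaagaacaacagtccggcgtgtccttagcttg
Kif11 (chr19:37376132-37376431, plus strand): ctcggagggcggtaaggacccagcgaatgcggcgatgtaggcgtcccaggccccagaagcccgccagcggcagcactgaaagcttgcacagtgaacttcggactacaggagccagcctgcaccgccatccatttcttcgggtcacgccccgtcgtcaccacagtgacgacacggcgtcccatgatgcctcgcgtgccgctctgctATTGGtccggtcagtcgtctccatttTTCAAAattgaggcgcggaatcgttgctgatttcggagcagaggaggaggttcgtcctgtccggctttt
Mcm5 (chr8:75109259-75109558, plus strand): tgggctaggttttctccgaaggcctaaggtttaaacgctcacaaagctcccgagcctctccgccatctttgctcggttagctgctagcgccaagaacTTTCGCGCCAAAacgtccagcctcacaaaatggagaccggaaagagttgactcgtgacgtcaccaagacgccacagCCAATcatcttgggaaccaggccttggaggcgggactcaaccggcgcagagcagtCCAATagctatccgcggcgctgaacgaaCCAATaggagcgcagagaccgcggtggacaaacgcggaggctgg
Cdc6 (chr11:98907901-98908200, plus strand): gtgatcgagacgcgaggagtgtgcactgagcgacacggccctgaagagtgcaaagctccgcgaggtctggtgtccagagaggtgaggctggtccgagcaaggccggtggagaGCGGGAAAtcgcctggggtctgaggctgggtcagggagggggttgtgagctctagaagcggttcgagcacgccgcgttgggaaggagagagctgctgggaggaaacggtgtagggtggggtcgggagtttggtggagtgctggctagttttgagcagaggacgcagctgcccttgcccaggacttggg
Ccne1 (chr7:38107441-38107740, minus strand): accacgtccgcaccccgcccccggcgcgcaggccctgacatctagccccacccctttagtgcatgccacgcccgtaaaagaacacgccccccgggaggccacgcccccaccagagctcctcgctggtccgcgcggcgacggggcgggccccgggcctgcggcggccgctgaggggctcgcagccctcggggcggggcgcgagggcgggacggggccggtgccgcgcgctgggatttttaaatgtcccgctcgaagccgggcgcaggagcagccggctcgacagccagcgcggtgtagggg

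Among the 19 G2/M members with a promoter in the table, 14 (73.7%) held TTTGAA, against 1 of 13 S members (7.69%) and 18.1% of all 27025 promoters of the same length. The E2F-like letters showed the opposite split, with 1 of 19 G2/M members (5.26%), 7 of 13 S members (53.8%) and 5.27% of all promoters. CCAAT was found in 17 of 19 G2/M members, in 8 of 13 S members and in 37.9% of all promoters. A match describes the letters in this window and does not show that a factor binds there.

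After filtering, 9373 cells were kept in the PD00 library, 11285 in the Model library and 9368 in the Control library, with medians of 4574, 4048 and 5231.5 UMIs per cell. The cell barcodes of the PD00 and Model libraries had 43 in common, those of PD00 and Control 31, and those of Model and Control 37. Cells were sorted into 21 classes by 6 markers each, and the 6 T cell markers, for example, summed to 2518, 2882 and 3162 UMIs per 1000000 UMIs (CPM) inside the T cell gate of the PD00, Model and Control libraries, against 61.5, 116 and 52.2 CPM outside it. Cells with markers of 2 compartments were set aside as mixed; they made up 11.5% of PD00 cells, 15.4% of Model cells and 7.45% of Control cells.

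Most of the members marked the same few cells. Of the UMIs of Ccna2, the cyclin that spans S phase and G2, 92.8% in the PD00 library, 91.4% in the Model library and 95.2% in the Control library lay in cells that were G2/M-positive by the other members. Birc5, the survivin gene of the chromosomal passenger complex, had 92.6%, 91.4% and 95.0% there. Mki67, the gene of the Ki-67 protein (ENSMUSG00000031004, chr7:135689784-135716361, GRCm38), had 73.0%, 76.8% and 82.3%. The MCM genes were looser, with 21.0% to 53.9% over Mcm2 to Mcm7 and the 3 libraries. Among the members least bound to the positive cells were Pcna, the sliding clamp of DNA polymerase, with 24.2%, 26.5% and 20.1%, Cdt1 with 23.0%, 25.7% and 18.6%, and Cenpa, the centromeric histone, with 26.3%, 30.5% and 31.5%. Pcna was found in 38% of the remaining PD00 cells, in 37.0% of the remaining Model cells and in 43.8% of the remaining Control cells.

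**Figure D1:**
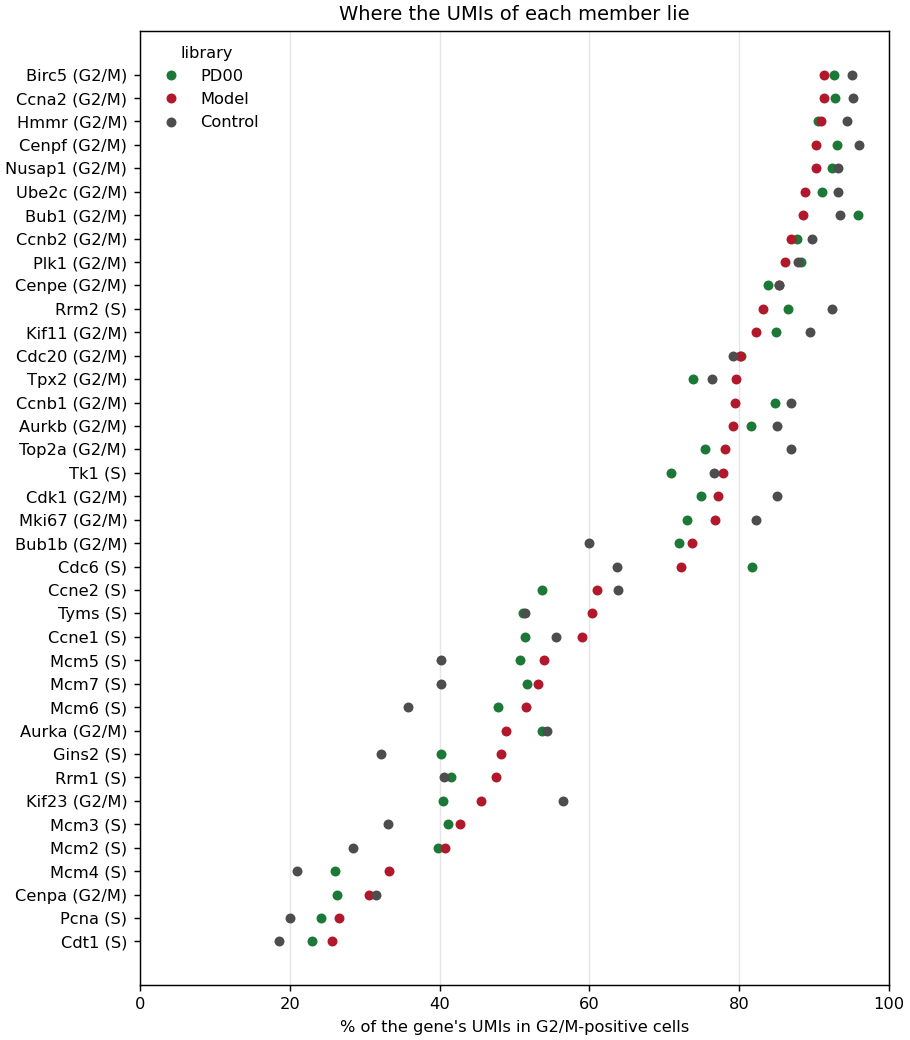
Percentage of each member's UMIs that lay in G2/M-positive cells (horizontal axis), for PD00, Model and Control, with a G2/M member left out of the call when it was itself plotted. Ccna2, Birc5 and Cenpf sit near the right edge in every library, and Pcna, Cdt1 and Cenpa at the left.

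Genes that had no part in the call followed it. All 24 of the other mitosis genes measured were at least 1.5-fold higher in G2/M-positive than in the remaining cells in each library, with median log2 ratios of 4.45 in PD00, 4.30 in Model and 5.51 in Control. All 18 other S phase genes behaved likewise, with medians of 2.84, 2.92 and 2.83, as did the 8 chromatin and tubulin genes, with medians of 2.27, 2.45 and 2.29. Of 12 cycle inhibitors and quiescence genes, 3 were higher in each library and 4 in PD00, 6 in Model and 4 in Control were lower, and the medians were -0.39, -0.45 and -0.24. The share of all genes past 1.5-fold between positive and remaining cells was not counted. Positive cells also differ from the remaining ones in class and depth, so how particular these counts are to cycle genes was not tested.

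The share of G2/M-positive cells was largest in the Model library. It was 3.88% in PD00 (364 cells, interval 3.50% to 4.29%), 4.96% in Model (560 cells, 4.57% to 5.38%) and 3.13% in Control (293 cells, 2.78% to 3.50%). The Model share was 1.59 times the Control share (interval 1.38 to 1.82), and the PD00 share was 0.783 times the Model share (0.688 to 0.890). Both ratios use the same Model library, so their opposite directions are not independent of each other. Near the limit, 293 PD00, 375 Model and 159 Control cells had 3 members, and 80, 130 and 63 had 4. With at least 8 members required, the shares were 2.36%, 2.78% and 1.87%. The background was read from neutrophils, in which 0 of 1143 PD00 cells, 7 of 1729 Model cells (0.405%) and 0 of 945 Control cells were G2/M-positive at medians of 1367, 1446 and 1908 UMIs. The counts of 0 allow shares of up to 0.262% in PD00 and 0.317% in Control neutrophils. Thinned to 1000 UMIs per cell, with at least 2 members required, neutrophils gave 0.911% in PD00, 2.29% in Model and 0.701% in Control. The higher neutrophil background in the Model library moves with the higher shares there, and its part in them was not tested. G2/M-positive cells also held more UMIs than other cells, with medians of 17928 in PD00, 14184 in Model and 19295 in Control, beside 4395, 3843 and 5030 in the remaining cells.

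The classes that supplied the dividing cells differed between libraries. Alveolar macrophages made up 17% of the G2/M-positive cells in PD00 and 7.14% in Model, against 50.5% in Control. T cells made up 20.6% in PD00 and 27.1% in Model, against 13.7% in Control, and plasma cells 15.1% and 8.57%, against 1.71%. The mixed cells were most often macrophages with neutrophil or plasma cell markers in PD00 and Model, and macrophages with neutrophil markers in Control. They held 27.7% of the G2/M-positive cells in PD00 and 33.6% in Model, against 19.1% in Control. These percentages follow class size as well as the share within a class. Alveolar macrophages numbered 1220 in PD00 and 766 in Model, against 2859 in Control. T cells numbered 2516 and 2911, against 1847, and plasma cells 347 and 408, against 20. Given the class makeup of the Control library and their own share within each class, PD00 would have had 3.73% and Model 4.41% G2/M-positive cells, against 3.13% measured in Control.

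**Figure D2:**
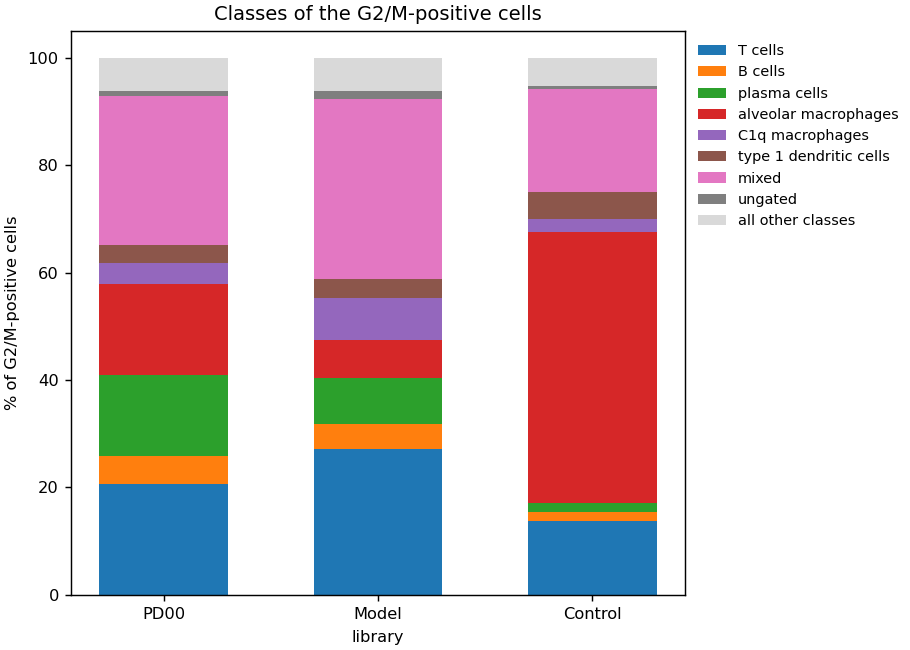
Classes of the G2/M-positive cells in each library, as a percentage of all such cells (vertical axis; bars PD00, Model, Control). Alveolar macrophages take 50.5% of the Control bar, and T cells take 27.1% of the Model bar.

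Summed over all kept cells, most members differed by less than 1.5-fold between libraries. The 22 G2/M members together stood at 379 CPM in PD00 and 473 CPM in Model, against 403 CPM in Control. In Model over Control, 2 of 38 members were at least 1.5-fold higher, where 12.3% of all 15438 measured genes were, and 0 were 1.5-fold lower, where 18.1% of genes were. Scaled by median of ratios, 6 of 38 were higher. The 2 were Ccne1 (cyclin E1) and Cdc6. Ccne1 stood at 3.15 CPM in Model against 1.51 CPM in Control, a ratio of 2.08 (1.66 to 2.61), and at 3.32 CPM in PD00. Cdc6 stood at 2.57 CPM in Model against 1.57 CPM in Control, a ratio of 1.64 (1.31 to 2.07), and at 2.05 CPM in PD00. The next members, ordered by the end of the interval closest to 1, which favours those with more UMIs, began with Ube2c (1.39). Ccna2 stood at 8.46 CPM in PD00 and 10.3 CPM in Model, against 7.29 CPM in Control (1.42), and the spindle kinesin Kif11 at 9.04 and 11.9 CPM, against 8.63 CPM (1.38). Birc5 stood at 19.2 and 27.7 CPM, against 20.8 CPM (1.33). All 4 were highest in Model. At the other end, by the same bound, were 6 members that were highest in Control. Gins2 of the replication helicase stood at 5.21 CPM in PD00 and 6.07 CPM in Model, against 7.75 CPM in Control (Model over Control 0.783), and Mcm4 at 18.3 and 20.7 CPM, against 24.8 CPM (0.836). The cytokinesis kinesin Kif23 stood at 19.9 and 21.1 CPM, against 23.6 CPM (0.895), and the checkpoint kinase Bub1b at 7.33 and 8.88 CPM, against 10.2 CPM (0.872). Mcm7 stood at 16.6 and 20.4 CPM, against 22.3 CPM (0.916), and Pcna had a ratio of 0.939. The other 26 members, all of which reached the minimum of 50 UMIs, lay between 0.908 for Tpx2, a spindle assembly factor, and 1.39 for Plk1. The median member had a log2 ratio of 0.10, beside -0.13 for all genes. UMIs of the members sit together in few cells, so intervals on these ratios, which treat UMIs as independent, are too narrow.

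In PD00 over Model, 0 of 38 members passed 1.5-fold in either direction over all kept cells, where 3.5% of all genes were higher and 7.29% lower. All 22 G2/M members had ratios below 1, with a median log2 of -0.33, beside 0.00 for all genes. Ube2c (ENSMUSG00000001403, chr2:164769898-164778822, GRCm38), whose promoter is shown above, stood at 21.7 CPM in PD00 against 31.4 CPM in Model, with 22.6 CPM in Control, and its ratio to Model was 0.691 (0.649 to 0.735). Birc5 had a ratio of 0.693. Nusap1, a spindle microtubule binder, stood at 15.4 CPM in PD00 and 22.1 CPM in Model, with 20.8 CPM in Control (PD00 over Model 0.699), and Ccnb1, cyclin B1, at 4.03 and 5.92 CPM, with 5.24 CPM in Control (0.680). Ccnb2, cyclin B2, stood at 8.24 and 11.1 CPM, with 11.9 CPM in Control (0.741). Top2a, which untangles sister chromatids, had a ratio of 0.759. Among the S members the median log2 was -0.21, with 2 of 16 above 1: Cdt1 at 19.0 CPM in PD00 against 16.6 CPM in Model, with 16.0 CPM in Control (1.15, 1.07 to 1.24), and Ccne1 (1.05, 0.881 to 1.26). The next by the same bound were Kif23 (0.941), Rrm1 (0.912, at 25.4 CPM in PD00 and 27.8 CPM in Model, with 23.9 CPM in Control), Mki67 (0.884) and Pcna (0.867). The other 26 members lay between 0.714 for Plk1 and 0.995 for the mitotic kinase Aurka.

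Widely used proliferation markers are given next in every library. Mki67 stood at 88.7 CPM in PD00 and 100 CPM in Model, against 78.4 CPM in Control. Top2a stood at 57.1 and 75.2 CPM, against 60.2 CPM, and Cdk1 at 9.56 and 11.5 CPM, against 11.4 CPM. Mcm5 had 16.0 and 18.2 CPM, against 15.3 CPM, Rrm2 had 12.7 and 16.0 CPM, against 12.1 CPM, and Tk1 had 6.25 and 7.24 CPM, against 7.64 CPM. Pcna had 104 and 120 CPM, against 128 CPM in Control.

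In T cells most members stood higher in Model than in either other library: 36 of 38 had a Model over Control ratio above 1, and 3 of 38 a PD00 over Model ratio above 1. Over all genes measured in T cells, the median log2 ratio was 0.15 in Model over Control and 0.08 in PD00 over Model. The share of all genes above a ratio of 1 was not counted, and UMIs of the members sit together in few cells. G2/M-positive cells made up 2.98% of PD00 T cells (75 of 2516) and 5.22% of Model T cells (152 of 2911), against 2.17% of Control T cells (40 of 1847). The Model share was 2.41 times the Control share (1.71 to 3.40), and the PD00 share was 0.571 times the Model share (0.435 to 0.749). The order was the same with 8 members required (2.19% and 3.71%, against 1.46%) and after thinning (3.71% and 5.2%, against 2.67%), and the median depths of the 3 T cell populations were 4047.5, 4231 and 4209 UMIs. At the T cell subset makeup of the Control library, PD00 T cells would have had 3.23% and Model T cells 5.49% positive cells, against 2.17%.

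Summed over T cells, 28 of 38 members were at least 1.5-fold higher in Model than in Control, where 20.4% of all genes were; 0 were 1.5-fold lower, where 8.35% were. The median log2 ratio was 0.82 over the members, beside 0.15 for all genes. Scaling without mitochondrial, ribosomal protein and haemoglobin genes left 17 of 38, and scaling by median of ratios left 22. Of the G2/M members 17 of 22 and of the S members 11 of 16 passed. Mki67 stood at 144 CPM in PD00 and 184 CPM in Model, against 73.0 CPM in Control, a Model over Control ratio of 2.52 (2.31 to 2.76). Ccnb1 had 5.74 and 7.70 CPM, against 2.53 CPM (3.05, 1.90 to 5.13), and Tk1 had 7.53 and 12.9 CPM, against 4.69 CPM (2.74, 1.93 to 3.98). Cenpa (0.802) and Mcm4 (0.854) were the only members of the 38 below 1, and both had large baselines outside positive cells. In PD00 over Model, 8 of 38 members were at least 1.5-fold lower, where 2.86% of genes were, and 0 were higher, where 3.74% were; the median log2 was -0.36, beside 0.08 for all genes. Those lower were Ccnb2 (0.549), Birc5 (0.592), Ube2c (0.658), the mitotic kinase Plk1 (0.575), Nusap1 (0.662), Rrm2 (0.644), Gins2 (0.520) and Tk1 (0.585). Cdt1 went the other way, with 41.1 CPM in PD00 and 29.5 CPM in Model, against 22.4 CPM in Control (PD00 over Model 1.39, 1.21 to 1.59); outside positive T cells it had 37.9 and 26.6 CPM, against 20.6 CPM.

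**Figure D3:**
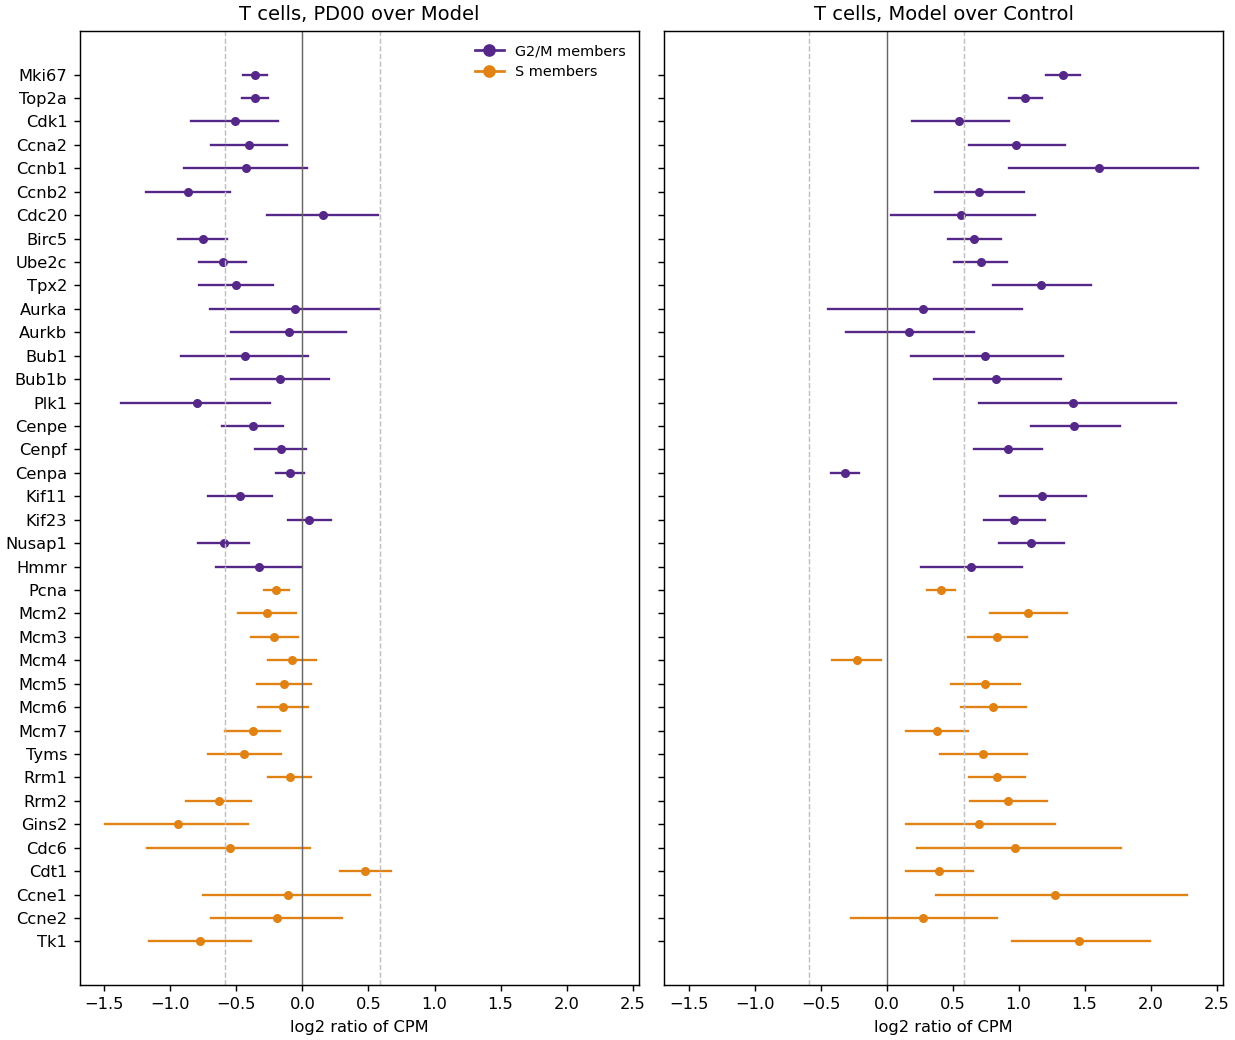
Log2 ratio of CPM summed over T cells for each member, PD00 over Model (left) and Model over Control (right); lines are 95% counting intervals and dashed lines mark 1.5-fold. In the right panel 28 of 38 members lie beyond the upper dashed line, and in the left panel 8 lie beyond the lower one.

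Within the positive T cells the G2/M members summed to 5629 CPM in PD00 and 5356 CPM in Model, against 5497 CPM in Control. The same members made the call, so the closeness of these sums in the positive T cells is partly set by it. In Model over Control, 2 of 36 measured members were 1.5-fold higher there (14.4% of genes) and 2 lower (10.8%), with a median log2 of 0.00. Outside the positive cells, 11 of 19 measured members were still 1.5-fold higher in Model T cells than in Control T cells, where 20.4% of genes were, Mki67 at 26.3 CPM in PD00 and 29.3 CPM in Model, against 7.35 CPM in Control.

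The other cycle lists of T cells differed in how many genes passed, beside 20.4% of all genes higher and 8.35% lower in Model over Control, and 3.74% higher and 2.86% lower in PD00 over Model. In Model over Control, 16 of 24 other mitosis genes and 9 of 12 cycle transcription factors were 1.5-fold higher and 0 were lower. Of 18 other S phase genes 8 were higher and 1 lower, of 10 genes of cyclin D, its kinases and the CDC25 phosphatases 4 were higher and 1 lower, of 8 chromatin and tubulin genes 2 were higher and 1 lower, and of 12 cycle inhibitors and quiescence genes 3 were higher and 2 lower. In PD00 over Model few passed: 5 of the mitosis genes, 1 of the S phase genes and 1 of the cyclin D group were lower, 1 of the inhibitors was higher, and 0 of the transcription factors or of the chromatin and tubulin genes passed. Over all kept cells, some genes of the other cycle lists moved further than the members. Anln, an actin-binding protein of the cleavage furrow, stood at 4.03 CPM in Model against 11.5 CPM in Control (0.351). Ccnd2, a D-type cyclin of the G1 phase, stood at 215 CPM in Model against 530 CPM in Control (0.406). Within populations its Model over Control ratio was 1.80 in B cells, 0.939 in CD8 T cells and 1.05 in Il1rl1-positive T cells, against 0.198 in C1q macrophages. Alveolar macrophages were the largest class in Control. Outside their positive cells, the whole cyclin D group summed to 314 CPM in Model against 1005 CPM in Control. How much each class, or the change in class sizes, adds to the difference in Ccnd2 over all kept cells was not tested. Wee1, the kinase that holds Cdk1 inactive, had 15.8 CPM in PD00 and 9.93 CPM in Model, against 6.68 CPM in Control. Ccnd1, another D-type cyclin, stood at 26.7 CPM in PD00 against 43.9 CPM in Model (0.609).

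Among T cell subsets, each gated by detection of its marker, CD8 T cells had 4.76% G2/M-positive cells in PD00 (8 of 168) and 9.43% in Model (28 of 297), against 1.86% in Control (7 of 376). The Model over Control ratio was 5.06 (2.24 to 11.4), and 2.60 (1.81 to 3.74) with only 2 members required; the PD00 over Model ratio, 0.505, had an interval of 0.236 to 1.08 that includes 1. Of 23 members measured in CD8 T cells, 21 were 1.5-fold higher in Model than in Control, where 22.3% of genes were. In PD00 over Model 7 of 23 were 1.5-fold lower, where 7.63% of genes were. Top2a stood at 161 CPM in PD00 CD8 T cells and 230 CPM in Model, against 39.9 CPM in Control. Naive-like CD8-negative T cells had 2.63% in PD00 and 4.40% in Model, against 0.987% in Control. With only 2 members required, their Model over Control ratio was 2.41, beside 4.46 with 4, and their PD00 over Model ratio 1.002, beside 0.597. Of their measured members, 22 of 27 measured members were 1.5-fold higher in Model over Control (19.3% of genes) and 11 of 28 lower in PD00 over Model (2.85% of genes).

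Il1rl1, the receptor for interleukin-33, is carried by type 2 helper cells and some regulatory T cells. The Il1rl1-positive T cells counted here held 0 Foxp3 UMIs in each library. Cells with Foxp3 were kept out of this subset, so that 0 comes from the gating and is not a finding. Foxp3-positive T cells, given apart below, held Il1rl1 at 474 CPM in PD00 and 318 CPM in Model, against 176 CPM in Control. Il1rl1-positive T cells had 2.79% G2/M-positive cells in PD00 (23 of 824) and 6.24% in Model (43 of 689), against 1.05% in Control (1 of 95). The PD00 over Model ratio was 0.447 (0.272 to 0.735), and 0.749 (0.610 to 0.921) with only 2 members required. Of 28 measured members, 17 were 1.5-fold lower in PD00 than in Model, where 3.05% of genes were, and 14 of the 17 were G2/M members out of 16 measured. Mki67 stood at 93.5 CPM in PD00 and 236 CPM in Model, against 46.5 CPM in Control, and Birc5 at 18 and 65.4 CPM, against 22.2 CPM. The single Control cell held 74.9% of the G2/M UMIs of its population, so the Control values here rest on 1 cell. Cdt1 was again higher in PD00, at 34.7 CPM against 20.6 CPM in Model, and was the 1 member 1.5-fold higher (4.93% of genes).

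T cells with Foxp3, the regulatory T cell factor, had 12.9% G2/M-positive cells in PD00 (15 of 116) and 8.97% in Model (13 of 145), against 14.7% in Control (10 of 68), more than any other T cell subset in PD00 and Control but less than CD8 T cells in Model, and the intervals of both ratios include 1. The PD00 over Model ratio of 1.44 (0.715 to 2.91) turned to 0.806 (0.541 to 1.199) with only 2 members required. Of 25 measured members, 15 were 1.5-fold higher in PD00 than in Model, where 9.84% of genes were. Mki67 stood at 651 CPM in PD00 and 300 CPM in Model, against 434 CPM in Control. These sums rest on few positive cells. A single cell held 17.4% of the G2/M UMIs of this subset in PD00 and 20.8% in Model, against 24.1% in Control. The G2/M members summed to 2964 CPM in PD00 and 1760 CPM in Model. Without the richest cell of each library they summed to 2684 and 1452 CPM. In gamma-delta T cells 1 of 179 PD00 cells and 8 of 313 Model cells were positive, against 6 of 117 Control cells. There 11 of 14 measured members were 1.5-fold lower in Model than in Control (14.6% of genes), and 8 of 13 were higher in PD00 than in Model (8.89% of genes). The PD00 count rests on 1 cell of 53622 UMIs: the summed G2/M members of PD00 gamma-delta T cells were 729 CPM with it and 281 CPM without it, beside 368 CPM in Model. Cells that hold more UMIs are more often caught by a gate on 1 gene, and G2/M-positive cells hold more; its part in the subset shares was not tested.

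**Figure D4:**
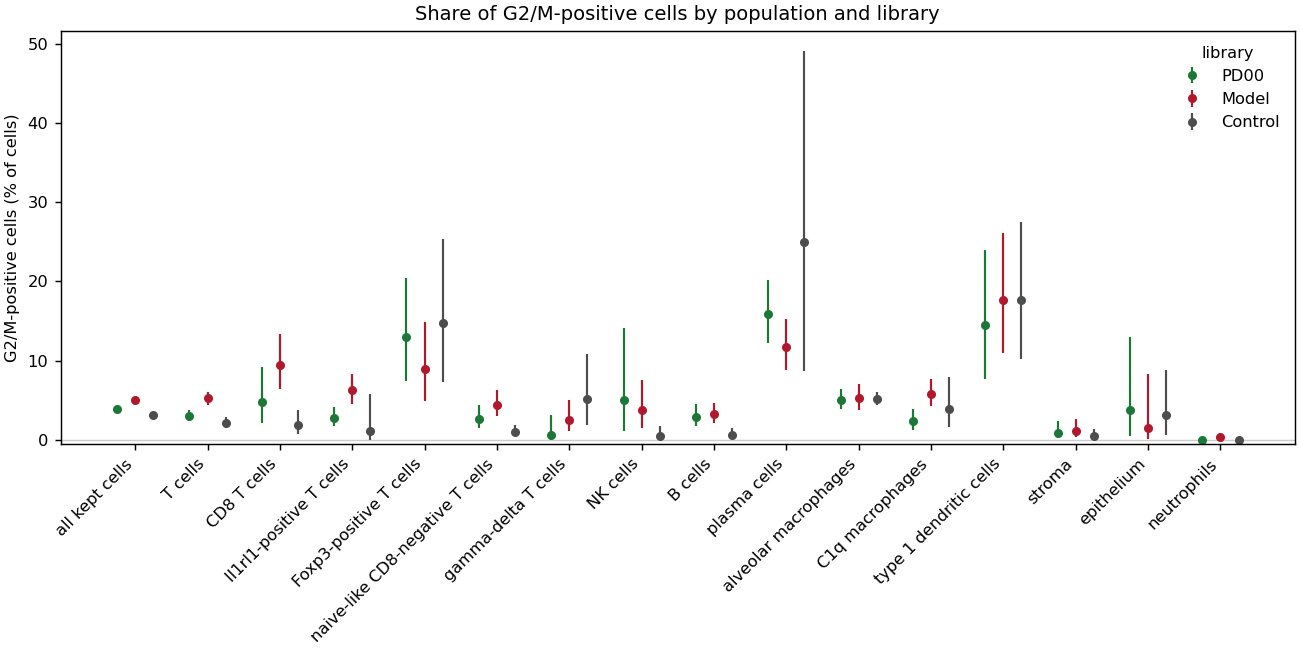
Share of G2/M-positive cells (vertical axis, % of cells) in 16 populations, with points for PD00, Model and Control and 95% exact binomial intervals. T cells, CD8 T cells and Il1rl1-positive T cells are highest in Model, alveolar macrophages are level near 5%, and neutrophils lie near 0.

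In the B lineage, positive plasma cells outnumbered positive B cells in PD00 and Model, while Control had 5 of each. B cells had 2.90% in PD00 (19 of 655) and 3.20% in Model (26 of 812), against 0.623% in Control (5 of 802), and Model over Control was 5.14 (1.98 to 13.3). Thinned to equal depth that ratio was 1.37 (0.678 to 2.79), and Control B cells were the shallowest, with a median of 3132 UMIs beside 4801 in PD00 and 4228 in Model. Of 21 members measured in B cells, 9 were 1.5-fold higher in Model than in Control, where 12.4% of genes were, and 6 of 23 were lower in PD00 than in Model, where 2.05% were. Plasma cells had 15.9% in PD00 (55 of 347) and 11.8% in Model (48 of 408), against 5 of 20 cells in Control, too few to sum. Their Mki67 level was 234 CPM in PD00 against 219 CPM in Model, and all 16 S members together summed to 263 CPM and 274 CPM.

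Alveolar macrophages had shares of G2/M-positive cells of 5.08% in PD00 (62 of 1220) and 5.22% in Model (40 of 766), against 5.18% in Control (148 of 2859). The intervals of the ratios were 0.661 to 1.43 for PD00 over Model and 0.718 to 1.42 for Model over Control. The closeness of the shares depends on the definition: thinned to 1000 UMIs the shares were 2.37% in PD00 and 4.76% in Model, against 3.08% in Control. The cells inside this gate also differed between libraries: Marco, a scavenger receptor of macrophages, stood at 0.958 CPM in PD00 and 2.61 CPM in Model, against 31.9 CPM in Control, and Trem2, a lipid receptor, at 230 and 285 CPM, against 82.6 CPM. The part of this in the comparisons was not tested. Per positive cell the members were lower, with the 22 G2/M members at 1931 CPM in PD00 and 2468 CPM in Model, against 4549 CPM in Control. Summed over all alveolar macrophages, 20 of 38 members were 1.5-fold lower in Model than in Control, where 27.6% of genes were, and 2 were higher, where 13.3% were. Mki67 stood at 55.2 CPM in PD00 and 49.8 CPM in Model, against 86.3 CPM in Control. Ccne1 was an exception, at 3.35 CPM in PD00 and 4.93 CPM in Model, against 1.07 CPM in Control (Model over Control 4.6, 3.01 to 7.07), and it was detected in 2.94% and 2.48%, against 0.701%, of the alveolar macrophages outside the positive cells. In PD00 over Model, 6 of 37 measured members were 1.5-fold lower (4.69% of genes), all of them G2/M members.

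Macrophages with complement C1q genes, which mark interstitial macrophages, had 2.34% G2/M-positive cells in PD00 (14 of 599) and 5.81% in Model (44 of 757), against 3.91% in Control (7 of 179). Model over Control was 1.49 (0.681 to 3.24), and 0.788 (0.321 to 1.93) with 8 members required. The summed members ran the other way. Of 26 measured members, 11 were 1.5-fold lower in Model than in Control, where 17.3% of genes were, and 1 was higher, where 21.1% were. Mki67 stood at 53.3 CPM in PD00 and 58.8 CPM in Model, against 78.2 CPM in Control. A single cell held 26.0% of the G2/M UMIs of Control C1q macrophages. The G2/M members summed to 415 CPM in Control and 245 CPM in Model. Without the richest cell of each library they summed to 310 and 222 CPM. UMIs of the members sit together in few cells, so the 11 members are not separate observations. PD00 over Model was 0.402 (0.223 to 0.727), and with 8 members required it was 0.569 (0.261 to 1.24), with 2 required 0.938 (0.739 to 1.19). Of 28 measured members, 13 were 1.5-fold lower in PD00 than in Model, where 3.77% of genes were; Ube2c stood at 5.86 CPM in PD00 and 12.7 CPM in Model, against 18.1 CPM in Control. Macrophages with both Gpnmb and Trem2, genes of lipid-laden and tissue-repair macrophages, had 3.83% in PD00 and 6.78% in Model, against 7.39% in Control. The PD00 over Model ratio was 0.565 (0.325 to 0.980), and 0.947 (0.756 to 1.19) with 2 and 0.358 (0.142 to 0.901) with 8 members required. This gate held different cells in each library: Marco stood at 0.193 CPM in PD00 and 0.154 CPM in Model, against 35.4 CPM in Control, and C1qa at 262 and 329 CPM, against 25.9 CPM.

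Among the remaining populations, type 1 dendritic cells had shares of 14.5% in PD00 (12 of 83) and 17.6% in Model (19 of 108), against 17.6% in Control (15 of 85). Stroma, the sum of endothelium, fibroblasts, pericytes and mesothelium, had 0.811% in PD00 (3 of 370) and 1.16% in Model (5 of 432), against 0.524% in Control (4 of 763), and its intervals overlapped. A single fibroblast held 80.9% of the G2/M UMIs of Control fibroblasts.

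S-positive cells did not follow the G2/M-positive ones everywhere. Over all kept cells they made up 7.44% in PD00 and 7.2% in Model, against 8.93% in Control, a Model over Control ratio of 0.806 (0.735 to 0.885), the reverse of the G2/M ratio. Thinned to 1000 UMIs per cell, the S-positive shares were 3.57% in PD00 and 4.12% in Model, against 2.98% in Control, the same order as the G2/M shares. Of the 837 S-positive Control cells, 526 were alveolar macrophages, beside 158 of 697 in PD00 and 77 of 813 in Model. Their S-positive share was 13% in PD00 and 10.1% in Model, against 18.4% in Control, at medians of 14686, 13084 and 14411 UMIs, and thinned it was 2.88% and 2.24%, against 3.72%. In T cells S-positive cells stood at 5.64% in PD00 and 7.52% in Model, against 3.25% in Control, so that S and G2/M shares had the same order there. Of the G2/M-positive cells, 69.0% in PD00 and 65.2% in Model, against 71.3% in Control, were also S-positive. Type 1 dendritic cells had more G2/M-positive than S-positive cells in each library, with S-positive shares of 8.43% in PD00 and 8.33% in Model, against 15.3% in Control.

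**Figure D5:**
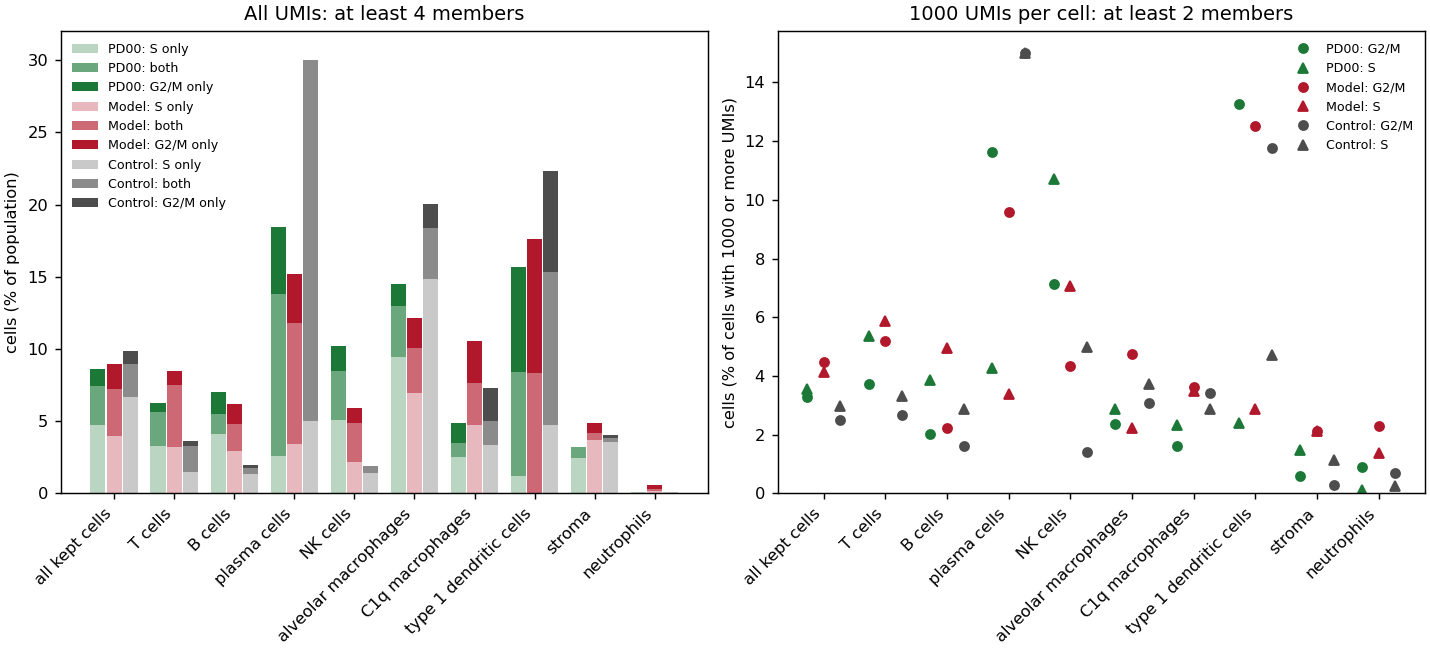
Left, cells that were S-positive only, positive for both lists, or G2/M-positive only, stacked as a percentage of each population in PD00, Model and Control. Right, shares of G2/M-positive (circles) and S-positive (triangles) cells after thinning to 1000 UMIs per cell. On the left the S-only part is tallest in Control alveolar macrophages; on the right the thinned T cell shares are highest in Model for both lists.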

How the data were processed

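In all, 3 libraries of mouse lung cells (10x Chromium 3' v3, per the labels' protocols) were analysed, 1 each labelled PD00, Model and Control. The deposited matrices hold raw UMI counts per gene and cell barcode, made by the authors (Cell Ranger 3.1.0, STAR, build mm10) per the submitters' processing notes, while the matrix headers name cellranger 5.0.0. Barcodes passed with 500 or more UMIs, 200 or more genes and a mitochondrial fraction up to 20%, and cells with a Scrublet score (scanpy 1.11.5) above 0.2 were removed as doublets: 274 in PD00, 252 in Model and 421 in Control. Classes needed at least 2 of 6 markers, with the most markers deciding; cells with at least 3 markers of another compartment as well were set aside as mixed. Ratios of CPM were formed from UMIs summed over a population, for genes with at least 50 UMIs in the 2 sums; a sum of 0 was set at 3 counts. Intervals are Clopper-Pearson for shares, a log interval for ratios of shares and an exact conditional binomial interval for ratios of CPM (scipy 1.17.1). A member or gene counts as called past 1.5-fold. No test was possible with 1 library per group. The scripts were tested on simulated counts drawn independently of each other. That test does not cover UMIs that sit together in few cells, as those of the members do. Members, lists and motifs were chosen with earlier results of these data known. Values were given in every library for the 6 highest and 6 lowest members per comparison by the interval bound nearest 1, and for 9 further markers, with a few genes of other lists by the same bound; subset examples were chosen after their values were seen. Other member limits, filters, scalings and gates were tried.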

Additional observations from a re-analysis of the deposited data

Results flagged for a closer look

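Populations that moved in opposite directions under the same comparison are listed here; no difference between them was tested, since each group has 1 library. In Model over Control, the ratio of the S-positive share was 2.32 in T cells, 2.56 in NK cells and 2.75 in B cells, against 0.546 in alveolar macrophages; the NK value rests on 9 Model and 8 Control cells. In the same comparison the median log2 ratio of the measured members was 1.94 in CD8 T cells, 1.32 in Il1rl1-positive T cells and 1.41 in naive-like CD8-negative T cells, against -0.96 in gamma-delta T cells. In PD00 over Model that median was 0.72 in Foxp3-positive T cells and 0.69 in gamma-delta T cells, against -0.80 in Il1rl1-positive T cells. The PD00 gamma-delta value rests on 1 cell, as does most of the Control sum of Il1rl1-positive T cells. In Foxp3-positive T cells a single cell held 17.4% of the G2/M UMIs in PD00 and 20.8% in Model.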

How the results depend on the processing

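Over 28 results and 242 alternative values, 231 stayed within the counting interval of the reported ratio or within 1.5 times the reported count, and 11 moved beyond it. Of the 178 values that are ratios of shares, 11, over 8 results, fell on the other side of 1 from the reported ratio; in all 11 the reported interval includes 1. They concern B cells, Foxp3-positive and naive-like T cells and the 3 macrophage populations, for example 1.21 for B cells in PD00 over Model (0.906 reported), 0.806 for Foxp3-positive T cells in PD00 over Model, both with 2 members required, and 0.788 for C1q macrophages in Model over Control with 8. In all, 15 ratios moved by over 1.5 times, among them those of CD8 and naive-like T cells in Model over Control, 2.60 and 2.41 with 2 members required. With at least 2 G2/M members required, the PD00 over Model ratio of positive shares was 0.944 over all kept cells and 0.823 in T cells; at that limit 17.3% of PD00 cells and 18.3% of Model cells counted as positive. Thinned to 1000 UMIs, the alveolar macrophage ratios were 1.54 for Model over Control and 0.499 for PD00 over Model; the cause was not tested. The count of members at least 1.5-fold higher in Model over Control was 17 in T cells when scaled without mitochondrial, ribosomal protein and haemoglobin genes, where the median of all genes shifted to -0.10 log2 from 0.15, and 6 over all kept cells when scaled by median of ratios. The other 5 values that moved belong to B cells, C1q macrophages, Il1rl1-positive T cells and the lower count over all kept cells. Limits of at least 8 members, leaving out mixed and ungated cells, and leaving out the cell richest in G2/M members were chosen after seeing the data. No paired analysis was possible because each group has 1 library, and no library could be left out. Depth limits the small populations: 5 Control B cells and 7 Control CD8 T cells were positive.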
